A study of Mus musculus with 4 samples.

Results

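The scar tissue of amputated mouse digits was compared between a library labelled 28 days post-amputation (dpa) and a library labelled 17 dpa, with 1 library at each time. The compared cells were all barcodes with at least 500 detected genes, at least 1000 unique molecular identifiers (UMIs) and at most 10% of UMIs from mitochondrial genes. These were 8693 of 10514 barcodes at 17 dpa and 11677 of 15253 at 28 dpa, together 20370 of the 39266 such cells in the 4 libraries of the series. Cells were grouped into classes by marker genes, and the account follows the classes other than fibroblasts and macrophages: epidermis, vessels, nerve sheath, tendon, bone and the remaining immune cells.

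Per the labels, both groups were wild-type FVB/NJ mice aged 8 weeks, cut through the middle phalanx (P2), a level that the series' design text calls non-regenerative, and males and females were pooled. The number of animals is not given in the labels, and the other libraries are unamputated digit and 12 dpa, which serve here only as side values. Scar tissue was digested enzymatically (trypsin, collagenase I), erythrocytes were removed by lysis, and cells without propidium iodide signal were sorted for 10x Chromium 3′ v3 libraries. With 1 library per time, animal, dissection and time cannot be told apart, no test was possible, and all 95% intervals cover counting error only.

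A digit that loses its tip through the nail bone can regrow it, whereas a cut through the middle phalanx closes with skin and scar. In such wounds keratinocytes cover the stump, vessels with their pericytes and smooth muscle grow into granulation tissue and later thin out, leukocytes leave, and fibroblasts, tenocytes and osteoblasts lay down and rework collagenous matrix. Mature tendon matrix is rich in small leucine-rich proteoglycans and cartilage oligomeric matrix protein, while osteoblasts secrete osteopontin, bone sialoprotein and osteocalcin as they mineralise their matrix.

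The library totals were 95988993 UMIs at 17 dpa and 106899985 at 28 dpa, and the kept cells had medians of 8898 and 7114 UMIs. Median UMIs were also lower at 28 dpa within each class described below, so levels are given as CPM (UMIs of the gene per 1000000 UMIs of the class), which removes depth but not free RNA in the droplets. Although the labels say that sexes were pooled, 5215 cells at 17 dpa and 5791 at 28 dpa were called male from sex-linked transcripts and 0 were called female, which allows up to 0.0575% and 0.0518% of the cells with a call. The 12 dpa library had 3845 cells called female and 0 male, so its side values come from cells of the other sex, whereas the unamputated library had 9465 called male and 1 female. The libraries shared 47 barcodes. Scrublet, a doublet caller, called 3.21% and 5.33% of cells by its own threshold. The cells called Scrublet-marked below are instead its top 8.41% and 12.2% by score, a share preset at 0.8% per 1000 barcodes and so larger at 28 dpa by construction, and they were kept. The 34 clusters gave 19 named classes from 28 clusters, and 6 clusters stayed unnamed. Among the unnamed ones, a cluster led by Ccn3, Mfap5 and Clec3b held 286 cells at 17 dpa and 1195 at 28 dpa.

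Epidermal cells made up a larger share of the 28 dpa library. The basal, suprabasal and follicle keratinocyte-like classes together held 770 cells, or 8.86% (8.27 to 9.47), at 17 dpa and 2116 cells, or 18.1% (17.4 to 18.8), at 28 dpa, a ratio of 2.05 (1.88 to 2.22). Follicle keratinocyte-like cells showed the widest difference of the 3, from 222 cells (2.55%) to 741 cells (6.35%), a ratio of 2.48 (2.14 to 2.90). Basal keratinocyte-like cells went from 342 to 825 and suprabasal keratinocyte-like cells from 206 to 550, ratios of 1.80 and 1.99. The same 3 classes were 14.2% of the unamputated library, so the 28 dpa share lay above it and the 17 dpa share below it.

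Neutrophil-like cells were nearly absent at 28 dpa. They numbered 259 (2.98%, 2.63 to 3.36) at 17 dpa and 2 (0.0171%, 0.00207 to 0.0619) at 28 dpa, so that the 17 dpa share was 174 times the 28 dpa share (47.7 to 1444). This cluster was led by the granule genes Camp, Ngp, Ltf and Lcn2 and by S100a8 and S100a9. Another cluster, whose best match was also neutrophil but which stayed unnamed because of its low UMI counts, was led by Ccrl2, Cxcl2, Il1b and Slc7a11 and held 253 and 199 cells. With it included, the share was 5.89% at 17 dpa and 1.72% at 28 dpa, a far smaller difference in the same direction.

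Lymphoid and dendritic shares were also lower at 28 dpa. T, NK and innate lymphoid-like cells went from 134 to 87, a ratio of shares of 0.483 (0.365 to 0.638). B lineage-like cells went from 156 to 105 (0.501, 0.387 to 0.646) and dendritic-like cells from 133 to 91 (0.509, 0.386 to 0.670). Macrophage-like cells lay the other way, at 12.1% and 15.5%, a ratio of 1.28 (1.18 to 1.38), but with the unnamed cluster led by Mmp12 and Acp5 included they were 16.6% and 17.7%, a ratio of 1.07 (1.00 to 1.15). Mast-like cells went from 29 to 6, and Scrublet marked 100% of them at 17 dpa and 16.7% at 28 dpa. These ratios depended on how cells were chosen and named: the B lineage-like shares were 1.47% and 0.459% under the stricter cell filter, and the dendritic-like shares were 2.60% and 1.98% when each cell was named alone.

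Osteoblast-like cells made up a smaller share at 28 dpa. They went from 10.8% (10.2 to 11.5; 940 cells) to 5.73% (5.31 to 6.17; 669 cells), a ratio of 0.530 (0.479 to 0.586), and the 28 dpa share was close to the 5.60% of the unamputated library. The ratio depended on how cells were grouped: it was 0.766 (4.72% and 3.62%) when Scrublet-marked cells were removed and 0.769 (3.83% and 2.95%) when the 2 libraries were clustered alone. Tenocyte-like cells were 4.15% (361 cells) and 3.40% (397 cells), a ratio of 0.819 (0.708 to 0.947), against 27.0% at 12 dpa. Their difference had no stable direction, since clustering the 2 libraries alone gave 2.28% and 3.23%, a finer clustering gave 3.74% and 3.75%, and a stricter cell filter gave 3.12% and 0.856%. Schwann-like cells, the glia of peripheral nerve, were 1.62% (141 cells) and 2.04% (238 cells), a ratio of 1.26 (1.02 to 1.56).

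Vessel cells kept nearly the same joint share. Vascular endothelial-like cells were 6.48% (563 cells) at 17 dpa and 5.62% (656 cells) at 28 dpa, and pericyte-like cells were 9.50% (826 cells) and 8.66% (1011 cells). Vascular smooth muscle-like cells were 5.25% (456 cells) and 6.15% (718 cells), a ratio of 1.17 (1.04 to 1.32), which turned to 4.79% and 4.05% under the stricter cell filter. The 3 classes together were 21.2% and 20.4%, a ratio of 0.962 (0.905 to 1.02). Among the cells outside the epidermis alone, 7885 and 9441 in the respective libraries, the endothelial share was 7.14% and 6.95%.

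**Figure D1:**
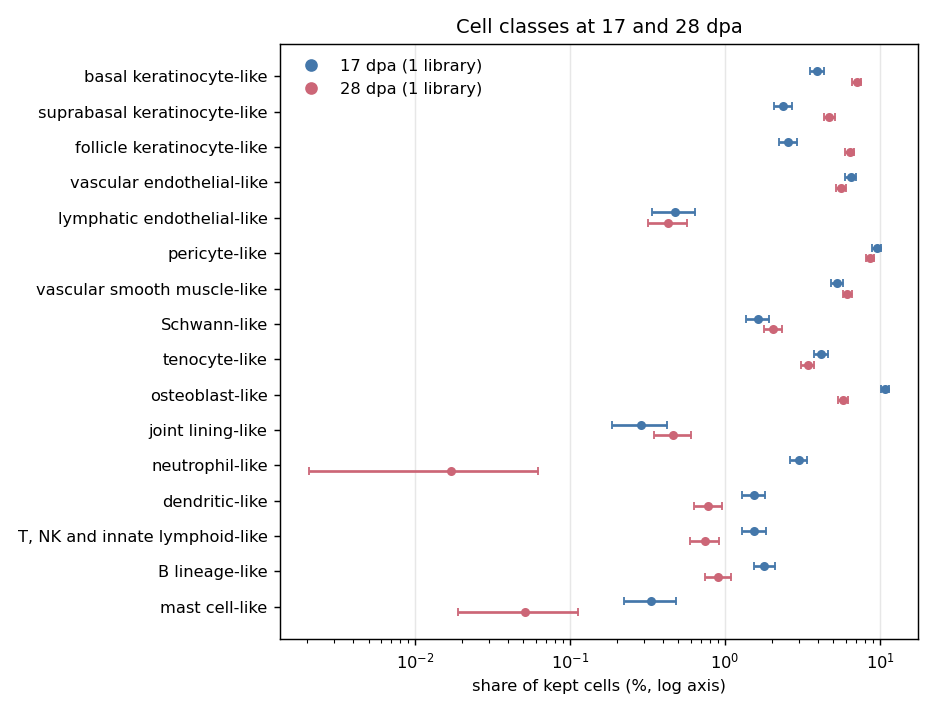
Share of kept cells (percent, logarithmic axis) of 16 marker-named classes in the 17 dpa library (blue) and the 28 dpa library (red), 1 library each; bars are exact 95% Clopper-Pearson intervals. Follicle keratinocyte-like cells lie at 2.55% and 6.35%, neutrophil-like cells at 2.98% and 0.0171%, and osteoblast-like cells at 10.8% and 5.73%.

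Expression was then compared class by class. A gene was described in a class where it reached 50 CPM and 20 UMIs in at least 1 of the libraries, and differences are log2 ratios of CPM plus 1, 28 dpa over 17 dpa, followed by the exact 95% interval of the ratio itself. Differences past 2-fold were few in the large classes. They made up 1.1% of described genes in endothelial-like cells and 5.31% in tenocyte-like cells, and each list is set below against all genes described in its class. A marker that defines a class helped to choose or name the cells. List genes that are not class markers were left out of the clustering. A gene that leads a cluster, from a list or not, was picked by its level in that cluster. Genes that define or lead a cluster therefore have values that are a description only. Beside those named as such below, these were Sele, Selp, Ackr1 and Plvap in endothelial-like cells, Acta2, Tagln and Myh11 in smooth muscle-like cells, and Spp1, Runx2 and Dmp1 in osteoblast-like cells. In keratinocytes they were Krt15, Mki67 and Top2a (basal), Krt1, Krt10, Krt2 and Calml3 (suprabasal) and Krt25 and Krt71 (follicle), and elsewhere Mbp in Schwann-like, Ccl5 in lymphoid-like, Ccl21a in lymphatic-like and Pf4 and Fxyd2 in macrophage-like cells.

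Several tendon matrix genes were higher in tenocyte-like cells at 28 dpa. Of the 16 genes of a tendon matrix list, 15 were described, 6 were past 2-fold higher and 0 past 2-fold lower, with a median of 0.54, which was -0.30 under the stricter cell filter. Over all 3638 described genes 2.53% were past 2-fold higher and 2.78% lower, and the median was -0.07. Of the 15, 8 genes (Col11a1, Col12a1, Fmod, Kera, Scx, Thbs2, Thbs4 and Tnmd) had defined or led the clusters. The other 7 had a median of 1.78 and 5 past 2-fold higher.

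Cilp2, which encodes a cartilage intermediate layer protein (chromosome 8, 69880369 to 69887687, minus strand), was at 13.5 CPM at 17 dpa and 200 CPM at 28 dpa, a difference of 3.79 (3.57 to 4.22). Chad, which encodes the leucine-rich matrix protein chondroadherin (chromosome 11, 94565047 to 94569127, plus strand), was at 7.28 and 108 CPM, a difference of 3.72 (3.46 to 4.36). Comp, cartilage oligomeric matrix protein, which is also a chondrocyte marker here, was at 343 and 2446 CPM. The proteoglycan gene Prelp was at 159 and 548 CPM, Ecrg4 at 518 and 1326 CPM, and the biglycan gene Bgn at 3238 and 4720 CPM. Fmod, the fibromodulin gene, was at 1028 and 2856 CPM, while the tendon transcription factor gene Scx was nearly level at 141 and 161 CPM and the keratocan gene Kera was lower, at 72.7 and 51.6 CPM. For Cilp2, Chad and Wif1 the 28 dpa level was the highest of the 4 libraries, with unamputated and 12 dpa levels under 10 CPM.

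Among genes named by size, under the exclusions given with the processing, Wif1 had the largest positive difference in tenocyte-like cells. It encodes a secreted inhibitor of Wnt ligands (chromosome 10, 121033960 to 121100650, plus strand). It was at 8.21 CPM (53 UMIs) and 202 CPM (873 UMIs), a difference of 4.46 (4.22 to 5.05). The largest negative difference among them was in Il1rl1, the gene of the interleukin-33 receptor, at 87.1 CPM (562 UMIs) and 0.463 CPM (2 UMIs), a difference of -5.91 (-10.61 to -5.70). Crabp1, which encodes a retinoic acid-binding protein, was at 146 and 5.55 CPM, and Aldh1a3, the gene of a retinoic acid-producing enzyme, was at 58.6 and 2.78 CPM. For Aldh1a3, 5 cells held 84.7% of the UMIs at 17 dpa, and its sign turned to 0.87 under the stricter cell filter.

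Collagen and matrix-modifying genes were lower on balance in tenocyte-like cells. Of 28 collagen and matrix-modifying genes, 27 were described, 0 were past 2-fold higher and 5 past 2-fold lower, with a median of -0.26. Col14a1, a fibril-associated collagen, was at 167 and 24.1 CPM, a difference of -2.74 (-3.10 to -2.50). Postn, which encodes the matricellular protein periostin, was at 4130 and 1053 CPM, a difference of -1.97 (-2.02 to -1.93), against 6210 CPM in the unamputated and 5688 CPM in the 12 dpa library. Lox, the collagen cross-linking enzyme, was at 563 and 198 CPM, and Col5a3 at 434 and 144 CPM. Col1a1 was nearly level at 19408 and 18758 CPM, and Col3a1 was lower at 16949 and 10586 CPM. In the contractile list 8 of 17 genes were described, and 7 of these were lower, none past 2-fold, among them Acta2, smooth muscle actin, at 385 and 192 CPM. The creatine kinase gene Ckb was past 2-fold higher, at 40.8 and 114 CPM.

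Subdividing the class showed a shift in its makeup. At a finer clustering, cells of a cluster led by Fmod and Ecrg4 were 115 of 361 (31.9%) at 17 dpa and 330 of 397 (83.1%) at 28 dpa. The cluster led by Kif26b and Fbn2 went from 18.8% to 1.01%, and that led by Inhba and Timp1, which also had Il1rl1 among its leading genes, from 26.9% to 8.56%. The plot of fine clusters shows these shares.

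Differences within the Fmod-led cells alone were therefore read, a check chosen after these shares were seen. Wif1 was at 11.2 and 235 CPM there, Cilp2 at 36.2 and 235 CPM, Chad at 16.0 and 129 CPM and Prelp at 238 and 590 CPM, so these 4 genes stayed past 2-fold higher. Comp was at 763 and 2843 CPM, but it is among the genes that lead this finer cluster, as are Fmod, Ecrg4, Scx and Tnmd, so their values there are a description only. Fmod, past 2-fold over the class, differed by 0.73 there (1981 and 3286 CPM). Ecrg4 and Bgn were closer, with differences of 0.44 and 0.12. Scx (-0.14), Tnmd (-0.11) and Cilp (-0.47) were not higher. Postn (-1.97), Col14a1 (-2.88) and Col5a3 (-1.28) stayed past 2-fold lower, and Acta2 was past 2-fold lower there at 267 and 103 CPM (-1.37), whereas Lox (-0.77) and Tnc (-0.53) did not. The shift in makeup and the differences inside the Fmod-led cells were thus both present.

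Markers of neighbouring skeletal types moved with these genes. In tenocyte-like cells the summed level of the 9 osteoblast markers, all with UMIs in both libraries, was 596 CPM at 17 dpa and 3728 CPM at 28 dpa, of which Spp1 alone was 347 and 3462 CPM. That of the 8 chondrocyte markers was 647 and 3311 CPM, 7 of them with UMIs and Cnmd at 0 in both libraries. Their part in the tendon matrix differences was not tested. Under the stricter cell filter the class held 219 and 69 cells, while an unnamed cluster led by Crabp2, Inhba, Timp1, Fmod and Comp held 115 and 295 cells.

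**Figure D2:**
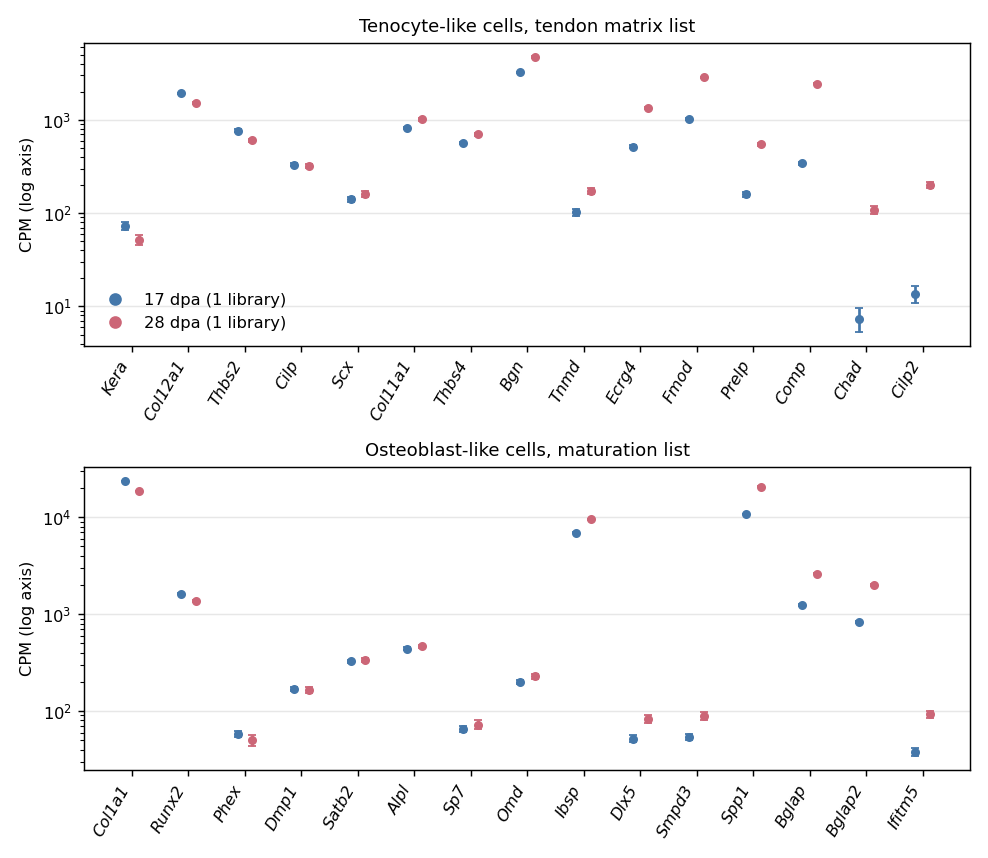
Levels (CPM, logarithmic axis) of 15 tendon matrix genes in tenocyte-like cells and 15 osteoblast maturation genes in osteoblast-like cells at 17 dpa and 28 dpa, 1 library each, with exact 95% Poisson bars. Cilp2, Chad, Comp, Prelp and Fmod lie apart in tenocyte-like cells, whereas Scx lies at 141 and 161 CPM; in osteoblast-like cells Bglap and Bglap2 lie apart and Dmp1 does not.

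**Figure D3:**
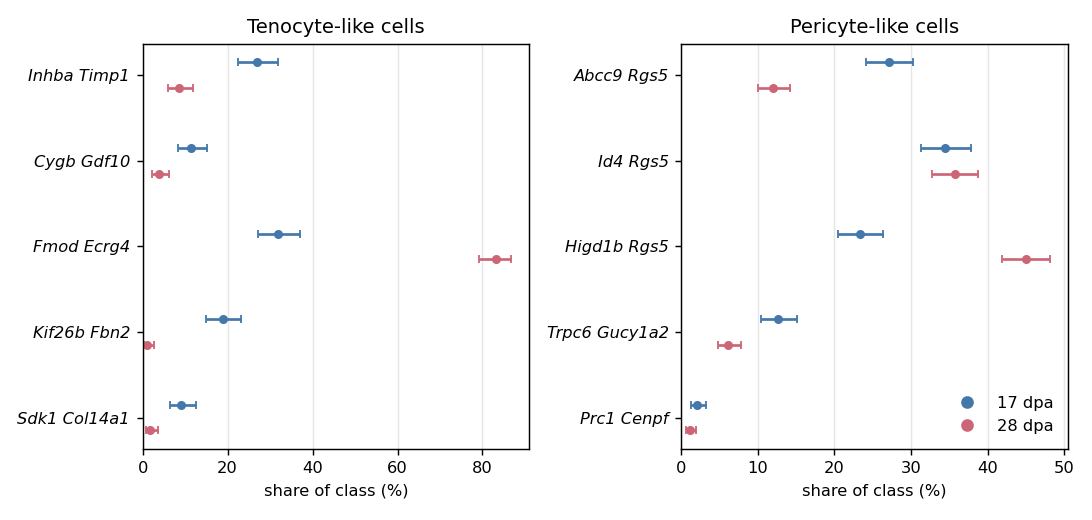
Share of its class (percent) held by each finer cluster of the tenocyte-like and the pericyte-like cells at 17 dpa and 28 dpa, 1 library each, with clusters named by their first 2 leading genes. The Fmod and Ecrg4 cluster holds 31.9% and 83.1% of tenocyte-like cells, and the Higd1b cluster 23.4% and 45.0% of pericyte-like cells.

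In osteoblast-like cells the cluster-defining genes Bglap, Bglap2, Ifitm5 and Spp1 were higher at 28 dpa, and collagens were lower on balance. Of 20 osteoblast maturation genes, 15 were described, 3 were past 2-fold higher, 0 past 2-fold lower and 11 above 0, with a median of 0.21. Over all 3671 described genes 0.872% were past 2-fold higher and 1.06% lower (1.93% in all), and the median was -0.12. The 3 were Bglap, Bglap2 and Ifitm5, all of which had defined or led the clusters. Bglap and Bglap2, the osteocalcin genes, were at 1244 and 2620 CPM and at 829 and 1988 CPM, and since they are near-identical copies the split of reads between them is uncertain. Ifitm5, a membrane protein of mineralising osteoblasts, was at 37.4 and 92.4 CPM, and Spp1, osteopontin, was at 10816 and 20714 CPM.

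The 5 maturation genes that had neither defined nor led a cluster had a median of 0.21 and none past 2-fold. Smpd3, a sphingomyelinase gene needed for mineralisation, was at 54.0 and 88.5 CPM, and the transcription factor gene Dlx5 at 51.7 and 82.1 CPM. Omd was at 199 and 229 CPM, Phex at 57.7 and 49.6 CPM and Col1a1 at 23551 and 18678 CPM. Runx2, the master regulator of the lineage, was at 1626 and 1378 CPM, and Dmp1, an osteocyte matrix protein, was level at 170 and 165 CPM. The whole list's median turned to -0.14 with finer clustering, in which a cluster led by Ibsp and Spp1 held 40.4% and 53.2% of the class and one led by Comp and Gpx3 held 56.7% and 44.4%.

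Of the collagen list, 26 of 28 genes were described in osteoblast-like cells, with 0 past 2-fold higher, 4 past 2-fold lower and a median of -0.42. The microfibrillar collagen genes Col6a2 (1279 and 527 CPM), Col6a3 (1650 and 713 CPM) and Col6a1 (1721 and 860 CPM) were lower, as was Col3a1 at 13151 and 6338 CPM, a difference of -1.05 (-1.07 to -1.04). Sparc, the osteonectin gene, went the other way, at 13386 and 16675 CPM. Of 21 basement membrane genes 12 were described, 10 of them were not above 0, and the median was -0.58.

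Among genes named by size in osteoblast-like cells, Cst3, which encodes the protease inhibitor cystatin C (chromosome 2, 148871722 to 148875692, minus strand), had the highest levels. It was at 6812 CPM (82444 UMIs) and 20530 CPM (105057 UMIs), a difference of 1.59 (1.58 to 1.60), against 3010 CPM in the unamputated and 2944 CPM in the 12 dpa library. Icam1, an adhesion receptor for leukocytes, was at 34.0 and 113 CPM, and the carbonic anhydrase gene Car3 at 20.1 and 62.3 CPM. Limch1, an actomyosin regulator gene, was at 54.2 and 7.03 CPM, the imprinted long noncoding RNA gene H19 at 116 and 25.8 CPM, and the phosphate transporter gene Slc20a2 at 53.6 and 18.4 CPM. Cst3 was also past 2-fold higher in tenocyte-like cells (1488 and 6347 CPM) and in endothelial-like cells (1090 and 2288 CPM), and differed less in macrophage-like cells, at 3110 and 3793 CPM. The summed level of the 12 macrophage markers, all detected, was 288 and 815 CPM in osteoblast-like cells, and its part in these values was not tested.

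Pericyte-like cells, the contractile cells that wrap capillaries, had higher levels of inflammatory chemokines at 28 dpa. Of 29 chemokine and cytokine genes 8 were described, all 8 were above 0, 5 were past 2-fold higher and 0 past 2-fold lower, with a median of 1.18. Over all 3957 described genes 0.758% were past 2-fold higher and 0.48% lower (1.24% in all), and the median was -0.09. Ccl2, a monocyte attractant (chromosome 11, 82035571 to 82037453, plus strand), was at 149 CPM (139 to 160) and 473 CPM (454 to 493), a difference of 1.66 (1.55 to 1.79), against 130 CPM in the unamputated and 195 CPM in the 12 dpa library. Cxcl1, a neutrophil attractant (chromosome 5, 90891241 to 90893115, plus strand), was at 435 and 920 CPM, a difference of 1.08 (1.01 to 1.15). Its neighbour Cxcl2 was at 63.9 and 157 CPM, a difference of 1.28 (1.11 to 1.49).

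The other chemokines past 2-fold were Ccl7, at 27.4 and 69.9 CPM, and the interferon-inducible Cxcl10, at 20.6 and 52.0 CPM. Ccl11, Cxcl12 and Ccl19, which attract eosinophils, progenitor cells and lymphocytes, differed by 0.28, 0.29 and 0.66. Of 25 NF-kB target and feedback genes 9 were described, 8 were above 0 and 1 was past 2-fold, with a median of 0.45. That gene was Icam1, at 78.2 and 164 CPM, while Il6 was at 195 and 273 CPM and the inhibitor gene Nfkbia differed by 0.66. In the same class the summed level of the 12 macrophage markers was 113 CPM at 17 dpa, with Ly6c2 at 0, and 235 CPM at 28 dpa, with Fcgr1 at 0. In macrophage-like cells themselves Cxcl1 was at 133 and 114 CPM, Cxcl2 at 524 and 369 CPM and Ccl2 at 265 and 263 CPM. The part of macrophage RNA in the pericyte values was not tested.

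Because Cxcl1 and Cxcl2 lie side by side and differed together, the 250 bases before their RefSeq starts are shown (RefSeq, build GRCm38.p6, chr5:90890995-90891244 for Cxcl1 and chr5:90903649-90903898 for Cxcl2, both plus strand, written 5′ to 3′). Capitals mark matches on either strand to an NF-kB-type motif, GGG and TTTCC parted by any 2 bases.
Cxcl1: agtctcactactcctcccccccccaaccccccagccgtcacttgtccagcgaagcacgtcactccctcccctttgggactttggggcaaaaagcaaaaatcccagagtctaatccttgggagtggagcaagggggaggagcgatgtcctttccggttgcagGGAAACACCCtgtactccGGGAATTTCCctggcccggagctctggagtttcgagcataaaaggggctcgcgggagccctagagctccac
Cxcl2: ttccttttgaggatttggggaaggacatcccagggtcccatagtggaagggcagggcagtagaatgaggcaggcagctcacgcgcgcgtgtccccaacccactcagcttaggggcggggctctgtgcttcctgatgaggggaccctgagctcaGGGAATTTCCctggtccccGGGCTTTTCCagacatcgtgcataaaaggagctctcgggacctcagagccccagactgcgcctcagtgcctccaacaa
Each window held 2 matches. In Cxcl1 these were 71 to 62 bases before the start on the plus strand and 89 to 80 bases before it on the minus strand, and in Cxcl2 they were 97 to 88 and 78 to 69 bases before the start, both on the plus strand. The motif was present in 464 of 32851 such windows (1.41%), and in 2 (Cxcl1 and Cxcl2) of the 6 windows read for Cxcl1, Cxcl2, Cxcl10, Cxcl12, Ccl19 and Icam1, which describes letters and not binding.

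Values of the same chemokines in other classes are given side by side, and differences between classes were not tested. In vascular smooth muscle-like cells Cxcl1 was at 370 and 716 CPM and Cxcl2 at 68.9 and 136 CPM, and Ccl2 at 26.6 and 41.3 CPM. In endothelial-like cells Cxcl1 was at 170 and 201 CPM, and Ccl2 was lower at 28 dpa, at 35.6 and 20.8 CPM. In fibroblast-like cells Cxcl1 was at 510 and 876 CPM and Ccl2 at 146 and 311 CPM. Tenocyte-like cells went the other way for Ccl2, at 142 and 94.4 CPM, and for Cxcl2, at 22.2 and 9.95 CPM, while Cxcl1 was at 55.0 and 68.0 CPM. In osteoblast-like cells Cxcl1 was at 97.7 and 123 CPM, Cxcl2 at 35.5 and 68.0 CPM and Ccl2 at 8.84 and 32.4 CPM.

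Within pericyte-like cells the cluster led by Higd1b, a hypoxia-inducible gene family member, held 23.4% (193 cells) at 17 dpa and 45.0% (455 cells) at 28 dpa, and that led by Abcc9, a potassium channel subunit gene, held 27.1% and 12.0%. In the Higd1b-led cells alone Ccl2 was at 208 and 703 CPM, Cxcl1 at 562 and 1195 CPM and Cxcl10 at 12.7 and 88.5 CPM, while Cxcl2 was not past 2-fold, with a difference of 0.67, and Ccl7 was at 23.6 and 102 CPM. In the Id4-led cells, 34.5% and 35.7% of the class, the same genes differed less, with Ccl2 at 168 and 240 CPM, Cxcl1 at 572 and 728 CPM and Cxcl10 at 20.1 and 12.1 CPM. Cxcl2 was at 61.8 and 80.9 CPM and Ccl7 at 43.9 and 38.7 CPM there, so none of these 5 chemokines was past 2-fold higher in the Id4-led cells. Icam1 was past 2-fold higher in both, with differences of 1.15 and 1.08. These sub-cluster values were read after the cluster shares were known.

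**Figure D4:**
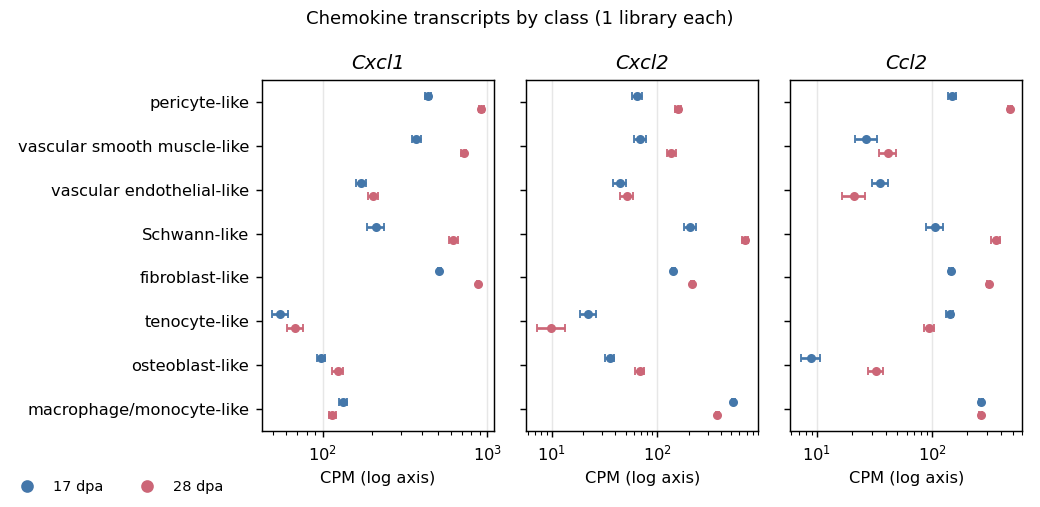
Levels (CPM, logarithmic axis) of Cxcl1, Cxcl2 and Ccl2 in 8 cell classes at 17 dpa and 28 dpa, 1 library each, with exact 95% Poisson bars. In pericyte-like cells Cxcl1 lies at 435 and 920 CPM and Ccl2 at 149 and 473 CPM. In macrophage-like cells Cxcl1 lies at 133 and 114 CPM, Cxcl2 at 524 and 369 CPM and Ccl2 at 265 and 263 CPM.

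Other genes named by size in pericyte-like cells included Gdf15, a stress-induced cytokine, at 22.5 and 69.3 CPM. Those lower at 28 dpa were Adam12, a disintegrin metalloprotease of activated stroma, at 133 and 35.1 CPM, Dlk1, an imprinted Notch-pathway ligand, at 90.0 and 25.6 CPM, and Lysmd4 at 78.4 and 29.8 CPM. Dlk1 was lower inside both the Higd1b-led cells (97.9 and 25.5 CPM) and the Id4-led cells (76.5 and 22.3 CPM), and Adam12 inside the Higd1b-led cells (122 and 31.7 CPM). Collagens and contractile genes were nearly level in the class, with medians of -0.01 and -0.11 beside the class median of -0.09.

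Vascular smooth muscle-like cells had slightly lower basement membrane genes and slightly higher early response genes. All 12 described of 21 basement membrane genes were below 0, with a median of -0.41 and none past 2-fold. Over all 3859 described genes 0.777% were past 2-fold higher and 0.389% lower (1.17% in all), and the median was -0.09. Col4a1 and Col4a2, the main chains of type IV collagen, were at 1215 and 821 CPM and at 1024 and 730 CPM, and Lamc1, a laminin chain, at 334 and 244 CPM. All 17 contractile genes were described, with 5 above 0 and a median of -0.13, or -0.11 over the 9 that had neither defined nor led a cluster. Acta2 was at 7711 and 8481 CPM and Tagln at 5288 and 6430 CPM, while Myh11 was at 2713 and 2381 CPM and Myocd, the cofactor that drives the contractile programme, at 222 and 133 CPM.

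Of 32 immediate early and heat shock genes, 30 were described in vascular smooth muscle-like cells, 29 were above 0 and 2 past 2-fold, with a median of 0.41. The 2 were Hspa1a (333 and 741 CPM) and Hspa1b (219 and 459 CPM), near-identical heat shock genes, and Fos was at 2640 and 3457 CPM. In pericyte-like cells 26 of 30 were above 0, with a median of 0.26. Genes of this kind respond to tissue dissociation, whose part in these values was not tested. Among genes named by size, Hilpda, a lipid droplet protein gene, was at 16.6 and 52.0 CPM and Abt1 at 16.0 and 54.0 CPM. The other 4, Trmt61b, A330015K06Rik, Sorbs2os and 4933431K23Rik, are antisense or noncoding entries whose values depend on strand-aware counting.

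In endothelial-like cells most described angiogenic and basement membrane genes were below 0, none of them past 2-fold. Of 25 angiogenic genes 17 were described, 3 were above 0 and 0 past 2-fold, with a median of -0.33. Over all 4002 described genes 0.725% were past 2-fold higher and 0.375% lower (1.1% in all), and the median was -0.06. Igfbp3 was at 337 and 183 CPM, the membrane-bound metalloprotease gene Mmp14 at 171 and 101 CPM, the apelin receptor gene Aplnr at 156 and 99.5 CPM and Nrp1, a co-receptor for VEGF, at 513 and 382 CPM. Plvap, a component of endothelial fenestrae, was higher at 797 and 1004 CPM. Of 15 described basement membrane genes 14 were below 0, with a median of -0.33. Col4a1 was at 1797 and 1248 CPM, against 2586 CPM in the unamputated and 2551 CPM in the 12 dpa library, and Col15a1 was at 702 and 482 CPM. The makeup of the class also differed: a finer cluster led by Ctla2a and Egfl7, with Plvap among its leading genes, held 15.3% and 26.8% of it, and one led by Adgrl4 and Pecam1, with Kdr, held 39.1% and 31.7%. The part of makeup in these values was not tested.

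The adhesion molecules that capture leukocytes lay close to the class as a whole in endothelial-like cells, with a median of -0.07 over 12 described genes. Sele was at 1050 and 709 CPM and Vcam1 at 60.7 and 35.7 CPM, but Selp was at 792 and 862 CPM and Ackr1, a chemokine-binding receptor of venules, at 91.3 and 131 CPM. Named by size were Tppp3 (110 and 235 CPM), Cst3, Fmo2 (43.8 and 92.5 CPM), the axon guidance-related Nav3 (113 and 38.8 CPM), Pcsk5 (56.2 and 23.7 CPM) and Flrt2 (108 and 48.5 CPM). The fatty acid transporter gene Cd36 was at 40.8 and 90.7 CPM. Beside it, the summed level of the 12 macrophage markers, all detected, was 682 and 1169 CPM in the class, and their part was not tested. Endothelial contractile genes were higher in 4 of 9 described, past 2-fold, while the 8 smooth muscle markers summed to 382 and 723 CPM. Acta2 was found in 10.5% and 10.7% of endothelial-like cells, and 5 cells held 57.6% and 61.2% of its UMIs.

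Schwann-like cells had lower myelin genes at 28 dpa. Of 17 myelin genes 16 were described, 15 were below 0 and 2 past 2-fold lower, with a median of -0.65. Over all 4348 described genes 2.64% were past 2-fold higher and 1.56% lower (4.21% in all), and the median was -0.02. The 13 that had neither defined nor led a cluster had a median of -0.62. Egr2, the transcription factor that switches on myelination, was at 81.3 and 34.1 CPM (100 and 49 UMIs), a difference of -1.23 (-1.78 to -0.75), and Prx, periaxin, was at 164 and 75.1 CPM. Mbp, myelin basic protein, was at 818 and 500 CPM, whereas Pmp22 was level at 1813 and 1805 CPM.

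The genes of repair Schwann cells had no common direction, with 14 of 20 described, 7 above 0 and a median of 0.03. The growth factor gene Btc was at 59.4 and 243 CPM and Gap43, a growth cone protein gene, at 31.7 and 80.7 CPM. Pou3f1 was lower, at 400 and 214 CPM, as were Jun (1048 and 787 CPM) and Sox2 (87.0 and 59.8 CPM). Among genes named by size the largest difference was in Nupr1, a stress-induced chromatin protein gene. It was at 38.2 CPM (47 UMIs) and 348 CPM (500 UMIs), a difference of 3.15 (2.75 to 3.65). Pgf, placental growth factor, was at 9.76 and 68.2 CPM and the alarmin gene Il33 at 8.13 and 52.9 CPM. Ogn (79.7 and 9.74 CPM), Adamts17 (67.5 and 11.1 CPM) and Tspan18 (50.4 and 8.35 CPM) were lower. At 17 dpa 5 cells held 84.7% of the Ogn, 60.2% of the Adamts17 and 35.5% of the Tspan18 UMIs. For Nupr1 5 cells held 48.8% of the 28 dpa UMIs, and 1 cell held 24.4%.

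Chemokines were also higher in Schwann-like cells, with all 6 described above 0, 3 past 2-fold and a median of 1.21. Cxcl1 was at 209 and 621 CPM, Cxcl2 at 204 and 675 CPM and Ccl2 at 106 and 358 CPM. These rested on few cells, since the top 5 cells held 67.3% of Cxcl1 and 77.7% of Ccl2 UMIs at 17 dpa and 32.4% and 54.8% at 28 dpa. The Schwann-like class carried markers of its neighbours: the 8 smooth muscle markers, all detected, summed to 241 and 805 CPM, the 8 pericyte markers to 424 and 1090 CPM and the 9 osteoblast markers to 126 and 394 CPM, while the 8 fibroblast markers were level at 11668 and 11669 CPM. Scrublet marked 15.6% and 29.0% of the class, and without those cells the myelin median was -2.08. The part of these in the Schwann values was not tested.

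In basal keratinocyte-like cells the stefin-family protease inhibitor genes Cstdc5 and Stfa3 and the keratin genes Krt15 and Krt17 were lower at 28 dpa. In basal keratinocyte-like cells 0.71% of 3523 described genes were past 2-fold higher and 0.653% lower (1.36% in all). Among genes named by size, the largest negative difference was in Cstdc5, a stefin-family gene (chromosome 16, 36359382 to 36367748, minus strand), at 576 CPM (3026 UMIs) and 38.8 CPM (376 UMIs), a difference of -3.86 (-4.05 to -3.74). It was at 712 CPM in the unamputated and 1627 CPM in the 12 dpa library, so 28 dpa stood below all others. Its neighbour Stfa3 was at 202 and 26.2 CPM in basal and at 449 and 82.5 CPM in suprabasal cells, and reads may be split among the near-identical stefin genes. Krt15, a keratin of resting basal cells, was at 821 and 322 CPM, and Krt17, a keratin of activated epidermis, at 177 and 87.8 CPM.

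Of 30 cell cycle genes 24 were described in basal keratinocyte-like cells, 15 were above 0 and none was past 2-fold, with a median of 0.26 beside the class median of -0.04. Of these, Mki67 was at 477 and 450 CPM and Top2a at 473 and 511 CPM. The adhesion list, which holds the basal keratins and hemidesmosome genes, had a median of -0.13 over 15 genes, with only Krt15 past 2-fold, and the 7 that had neither defined nor led a cluster had a median of -0.14. Among genes named by size, those higher in basal cells were Pcolce2 (10.1 and 55.1 CPM), Hist1h2ap (23.8 and 89.5 CPM) and the matricellular protein gene Ccn3 (35.4 and 117 CPM). Top 5 cells held 54.7% and 24.5% of Pcolce2 and 60.8% and 28.3% of Ccn3 UMIs. Pcolce2 and Ccn3 are also among the leading genes of finer fibroblast-like clusters. The unnamed cluster led by Ccn3 held 3.29% and 10.2% of all kept cells. The part of RNA from such cells in the basal values was not tested. Pcolce2 turned to -0.29 under the stricter cell filter. Adamtsl1 had 311 UMIs (59.2 CPM) at 17 dpa and 136 UMIs at 28 dpa, with an interval of the log2 ratio from -2.38 to -1.78.

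In suprabasal keratinocyte-like cells 8 of 31 wound-activated genes were described, 4 were past 2-fold lower and 3 were above 0, with a median of -1.07. Over all 3238 described genes 0.772% were past 2-fold higher and 1.08% lower (1.85% in all), and the median was -0.01. The alarmin genes S100a8 and S100a9 were at 76.5 and 22.7 CPM and at 109 and 26.7 CPM, and Krt17 was at 224 and 97.6 CPM. Hbegf, a ligand of the EGF receptor, was at 78.2 and 9.89 CPM, but 5 cells held 88.3% of its UMIs at 17 dpa. Krt6a was level at 243 and 258 CPM, and all these keratins lay below the 12 dpa library, in which Krt16 was at 1071 CPM against 222 and 114 CPM. The 10 neutrophil markers, which include S100a8 and S100a9, summed to 210 CPM (Mmp8 at 0) and 59.0 CPM (Ly6g, Ltf and Ngp at 0) in the class, and the 7 joint lining markers, all detected, summed to 1267 and 41.6 CPM. The part of either was not tested. Hbegf is also among the leading genes of a joint lining-like cluster. Under the stricter cell filter the list's median over 7 genes was 0.05. In follicle keratinocyte-like cells 6 of the 31 genes were described, 2 were past 2-fold higher and 1 lower, beside 1.04% and 1.12% of all genes described in that class, with Krt6a at 347 and 642 CPM. Of the 6, Krt17 had defined or led the cluster.

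Of 28 terminal differentiation genes 12 were described in the suprabasal class, with a median of -0.13, but 7 of these had defined or led the clusters. The other 5 had a median of -0.38, with 1 above 0 and 1 past 2-fold lower. Krt1 was at 14126 and 9591 CPM and Krt10 at 22623 and 19258 CPM, while Krt2, a keratin of the late spinous and granular layers, was at 3327 and 4903 CPM and Calml3 at 392 and 695 CPM. By size, Gm94 (a difference of 1.62), 4930438A08Rik (24.1 and 70.9 CPM) and Olah (39.8 and 105 CPM) were higher, and Klk7, a desquamation protease gene, was lower at 50.7 and 11.7 CPM, with 83.9% of its 17 dpa UMIs in 5 cells.

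In follicle keratinocyte-like cells hair and nail keratins were higher on balance at 28 dpa. Of 22 hair and nail keratin genes 9 were described, 8 were above 0 and 4 past 2-fold higher, with a median of 0.87, or 0.52 over the 7 that had not led or defined a cluster. Over all 3936 described genes 1.04% were past 2-fold higher and 1.12% lower (2.16% in all), and the median was -0.02. Krt25 was at 173 and 687 CPM, Krt71 at 121 and 512 CPM and Krt27 at 28.0 and 120 CPM, all keratins of the inner root sheath. The top 5 cells held 97.1% of Krt25 UMIs at 17 dpa and 58.7% at 28 dpa, and 97.9% and 68.6% of Krt71 UMIs. Krt35, a hair shaft keratin, was nearly level at 266 and 290 CPM. Of the 28 terminal differentiation genes 11 were described, 5 were past 2-fold lower and none higher, and 4 were above 0, with a median of -0.81. Krt1 and Krt10, of that list, were at 395 and 104 CPM and at 493 and 216 CPM.

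Most genes named by size in follicle keratinocyte-like cells came from a handful of cells. Tchh, trichohyalin, was at 9.21 and 237 CPM, with 92.4% of the 28 dpa UMIs in 5 cells. Pinlyp was at 18.0 and 132 CPM, with 84.4% of the 28 dpa UMIs in 5 cells and 81.3% in 1 cell. Krtap8-1, a hair keratin-associated protein gene, was at 120 and 0.754 CPM (286 and 5 UMIs), with all 17 dpa UMIs in 3 cells. Krtap7-1 had 136 UMIs in 2 cells at 17 dpa and 0 at 28 dpa, at least 126-fold lower against a floor of 3 counts with the 17 dpa count taken as exact, and the 95% interval of its log2 ratio reaches up to -6.66. Klk6 was at 121 and 3.92 CPM, from 4 cells at 17 dpa, of which 1 held 87.5% of the UMIs. Selenbp1, at 10.5 and 91.3 CPM, was the remaining one. A finer cluster led by Cst6 and Krt79, a keratin of the sebaceous duct, held 13.1% of the class (29 cells) at 17 dpa and 27.8% (206 cells) at 28 dpa.

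In T, NK and innate lymphoid-like cells, with 134 and 87 cells, cell cycle genes were lower at 28 dpa on balance. Of 30 cell cycle genes 11 were described, 2 were above 0 and 6 past 2-fold lower, with a median of -1.56. Over all 3933 described genes 1.86% were past 2-fold higher and 7.25% lower (9.1% in all), and the median was -0.12. Mki67 had 126 and 8 UMIs, and 5 cells held 88.1% of the former. Of 16 regulatory T cell genes 12 were described and 10 were above 0, with a median of 0.39, but 5 of the 12 (Ctla4, Icos, Ikzf2, Il2ra and Tox) had defined or led the cluster. The other 7 were all above 0, with a median of 0.48 and 1 past 2-fold. Tnfrsf9 was at 89.6 and 244 CPM and the lineage factor gene Foxp3 at 47.1 and 69.7 CPM. The effector cytokine gene Ifng had 230 and 28 UMIs, with 73.5% of the former in 5 cells, and Ccl4 was at 319 and 19.4 CPM, while Ccl5 was higher at 1190 and 1646 CPM.

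B lineage-like cells, with 156 and 105 cells of low depth (medians of 2571 and 1968 UMIs), had 2.05% of 3901 described genes past 2-fold higher and 7.59% lower (9.64% in all). Vpreb1, part of the surrogate light chain of immature B cells, had 134 UMIs in 5 cells at 17 dpa and 0 at 28 dpa, at least 22.3-fold lower, and Smoc2 had 39 and 0 UMIs, at least 6.49-fold lower. These folds set the 17 dpa count, taken as exact, against a floor of 3 counts, and the 95% intervals of the log2 ratios reach up to -4.16 and -2.33. The linker histone gene Hist1h1b had 66 and 0 UMIs. Hpse2 (5 and 51 UMIs), the elastin gene Eln (5 and 50 UMIs) and Ccl2 (5 and 25 UMIs) were higher, each at 28 dpa from 2 to 5 cells, and Hpse2 turned to -3.27 when Scrublet-marked cells were removed. The 8 fibroblast markers summed to 6869 CPM (Pi16 at 0) and 3775 CPM in this class, and their part was not tested.

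Dendritic-like cells, with 133 and 91 cells, had higher levels of some chemokines at 28 dpa. Of 29 genes 12 were described, 7 were above 0, 6 were past 2-fold higher and 1 lower, with a median of 0.85. Over all 3611 described genes 2.63% were past 2-fold higher and 3.9% lower (6.54% in all), and the median was -0.06. Ccl17, a chemokine of activated dendritic cells, was at 141 and 449 CPM and Cxcl2 at 559 and 1655 CPM. Cxcl1 was at 59.6 and 393 CPM and Ccl2 at 45.3 and 268 CPM. The 12 macrophage markers, all detected, summed to 4019 and 6814 CPM in the class and the 8 fibroblast markers to 455 and 1344 CPM, and their part was not tested.

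Lymphatic endothelial-like cells were 41 and 50 cells, of which Scrublet marked 80.5% and 70.0%, and 5.22% of their 3755 described genes were past 2-fold higher and 7.51% lower (12.7% in all). Ccl21a, the chemokine that guides leukocytes into lymph vessels, was at 5191 CPM at 17 dpa and 1486 CPM at 28 dpa, with 45.0% and 68.5% of its UMIs in 5 cells. The 8 fibroblast markers, all detected, summed to 12270 and 1939 CPM in this class, the 8 pericyte markers to 516 CPM (Kcnj8 at 0) and 151 CPM (Abcc9, Higd1b and Steap4 at 0), and the 12 macrophage markers, 7 and 10 of them detected, to 158 and 934 CPM. Their part was not tested.

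Some genes differed in the same direction in many classes, counted over the 10 classes above with at least 100 cells in both libraries and over fibroblast-like and macrophage-like cells. Of all described genes, 0.839% were past 2-fold higher and 0.656% lower in fibroblast-like cells (1.49% in all), and 0.646% and 1.18% in macrophage-like cells (1.83%). Fxyd2, a sodium pump regulator gene, was past 2-fold higher in 7 of the 9 classes in which it was described, with a median of 2.11, and its highest level was in macrophage-like cells, at 832 and 3529 CPM. Pf4, platelet factor 4, was past 2-fold higher in 6 of 7 classes and again highest in macrophage-like cells, at 2662 and 3738 CPM. A finer macrophage-like cluster led by Pf4 and Fxyd2 held 23.9% (251 cells) of that class at 17 dpa and 62.1% (1121 cells) at 28 dpa, and the part of its free RNA in the other classes was not tested. Nr1d1, a clock repressor gene, was past 2-fold higher in 6 of 9 classes, and the clock output gene Dbp was above 0 in all 8 classes in which it was described, from 0.71 to 1.76. The noncoding Gm10076 (12 of 12 classes) and Gm10260 (9 of 12) were also higher. Cdk8 (8 of 12), Nrep (6 of 7) and Cmss1 (11 of 12) were past 2-fold lower.

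S100a9 was past 2-fold lower in 7 of 8 classes, with a median of -2.96, and was at 118994 CPM in neutrophil-like cells at 17 dpa. The neutrophil-like share was 2.98% and 0.0171%, or 5.89% and 1.72% with the unnamed cluster of the same best match, and the part of free neutrophil RNA in the other classes was not tested. Schwann-like cells were the exception, at 21.2 and 113 CPM. The plot of gene lists sets each list against all described genes of its class.

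**Figure D5:**
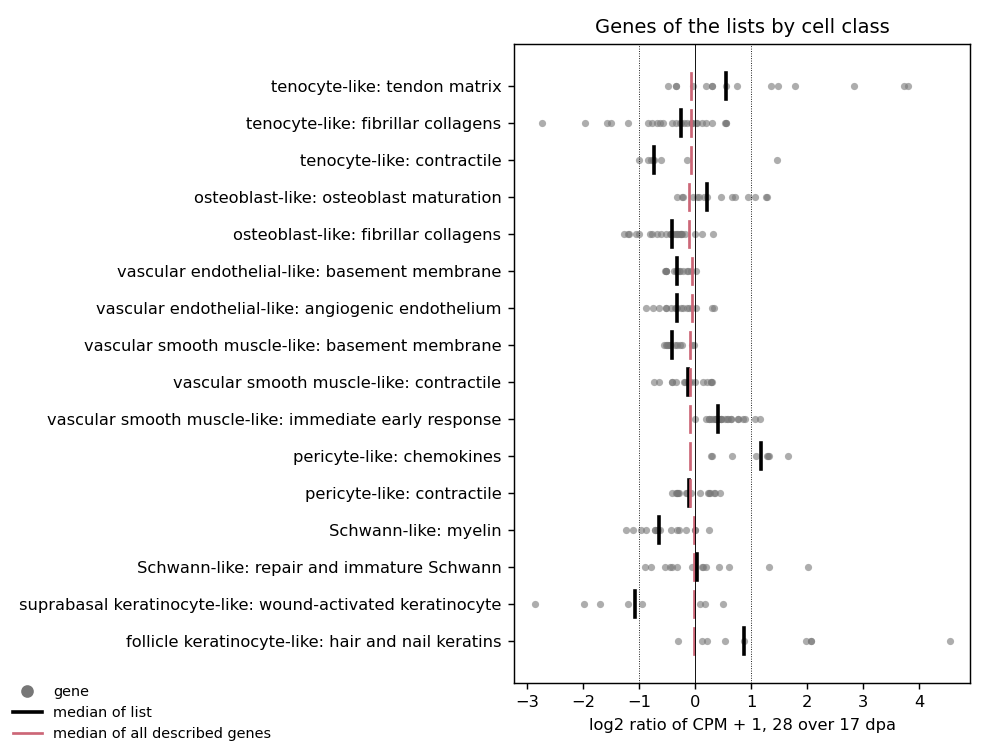
Log2 ratio of CPM plus 1, 28 dpa over 17 dpa, 1 library each, for each described gene (points) of 16 pairs of class and gene list; black bars are list medians, red bars the medians of all described genes of the class, and dotted lines 2-fold. Pericyte chemokines (median 1.18) and tenocyte tendon matrix (0.54) lie right of zero, and suprabasal wound-activated genes (-1.07) and Schwann myelin genes (-0.65) lie left of it.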

How the data were processed

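The deposited values were whole-number UMI counts per gene and barcode, made by the authors with Cell Ranger 7.1.0, per the file headers and the submitters' processing notes, which also name the build mm10. The cell-calling settings are not given in the sources used here. Barcodes passing the filter were scaled to 10000 UMIs, reduced with scanpy 1.11.5 (2000 variable genes, 30 components, 15 neighbours) and clustered over the 4 libraries at Leiden resolution 1, leaving out mitochondrial, ribosomal and sex-linked genes and all list genes that were not class markers. Clusters took the class with the highest marker score among 28 classes. The score was the mean log2 excess of a class's marker levels over the median cluster. A class was eligible only if at least 3 of its markers were each detected in 25% of cells. No name was given where a competing class had more markers at the top of the cluster. The same held where UMI counts were low and no marker of the best class was at the top. UMIs were summed per class and library and turned into CPM with a pseudocount of 1. Intervals are Clopper-Pearson for shares, exact Poisson for levels and exact conditional binomial for ratios, at 95%. In each of the 10 classes with at least 100 cells in both libraries, the 3 highest and 3 lowest log2 ratios among described genes were named (60 gene and class pairs), leaving out sex-linked, mitochondrial, haemoglobin and immunoglobulin genes, markers of other classes, cluster-leading genes, genes whose CPM was below 0.1 of that in some other class, and genes shared across classes. Of these 60 pairs, 16 had over 50% of the higher library's UMIs in 5 cells. Shared genes were past 2-fold in 1 direction in at least 6 classes and in most classes describing them. The classes and the 29 gene lists were chosen with earlier results of these data known. Alternatives were other cell filters, doublet removal, resolution 2, clustering of the 2 libraries alone, naming each cell alone, a 20 CPM minimum, a pseudocount of 5 and, added after seeing the data, naming every cluster by its best class. Scripts were tested on simulated data. Gene positions are from GENCODE M21 (GRCm38). Some markers and genes are not reported here.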

Additional observations from a re-analysis of the deposited data

Results flagged for a closer look

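In 6 of the genes named by size the difference between 28 and 17 dpa went past 2-fold in opposite directions in different classes. The gene S100a9, counted among those shared across classes, did so too, at 2.36 in Schwann-like and -3.27 in fibroblast-like cells. The difference between classes was not tested in any of them, since each value comes from 1 library at each time. Ccn3, a matricellular protein gene, had a log2 ratio of 1.69 in basal keratinocyte-like cells and -1.005 in osteoblast-like cells (219 and 108 CPM). The noncoding RNA gene H19 stood at 1.283 in tenocyte-like cells (21.9 and 54.6 CPM) and -2.128 in osteoblast-like cells. Tppp3, a tubulin-binding protein gene, stood at 1.656 in Schwann-like cells (194 and 615 CPM) and -1.162 in B lineage-like cells. Hpse2, a heparanase family gene, stood at 4.212 in B lineage-like cells and -1.193 in osteoblast-like cells (209 and 90.7 CPM). The elastin gene Eln stood at 4.184 in B lineage-like cells and -1.996 in fibroblast-like cells (690 and 172 CPM), where it led a cluster. The linker histone gene Hist1h1b stood at 1.652 in Schwann-like cells (22.8 and 73.7 CPM) and -6.949 in B lineage-like cells, where the value depends on the pseudocount: it rests on 66 and 0 UMIs, 90.9% of the former in 1 cell, and the 95% interval of the ratio reaches up to -3.12. The pairs of Tppp3, Hpse2, Eln and Hist1h1b each include the small B lineage-like class (156 and 105 cells), in which the Hpse2, Eln and Hist1h1b UMIs came from few cells. At 28 dpa 1 cell of that class held 94.1% of its Hpse2 UMIs, and 1 cell held 90% of its Eln UMIs.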

How the results depend on the processing

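With 1 library per time, depth limits what can be seen: classes near or under 100 cells rest on few UMIs per gene, and a list gene below 50 CPM was not described. Log2 ratios of shares, 28 over 17 dpa, moved as follows, and the causes were not tested. Under the stricter cell filter they were 0.76 for keratinocyte-like (1.03 as reported), -0.29 for pericyte-like (-0.13), -0.24 for vascular smooth muscle-like (0.23, so reversed), -1.865 for tenocyte-like (-0.29), -4.07 for neutrophil-like (-7.44) and -1.68 for B lineage-like cells (-0.997). The looser filter gave -0.072 for tenocyte-like cells, and removing Scrublet-marked cells gave -0.38 for osteoblast-like cells (-0.92). Finer clustering gave 0.0047 (reversed) for tenocyte-like, -0.52 for osteoblast-like and -1.72 for neutrophil-like cells. Clustering the 2 libraries alone gave 0.68 for keratinocyte-like, 0.50 (reversed) for tenocyte-like and -0.38 for osteoblast-like cells. Naming each cell alone gave 0.86 for keratinocyte-like, -0.33 for pericyte-like, -0.51 for osteoblast-like, -0.39 for dendritic-like (-0.97) and -2.67 for neutrophil-like cells. Naming every cluster by its best class gave -1.775 for neutrophil-like cells. Among non-epithelial cells the values were -0.039 for endothelial-like (-0.21), 0.032 for pericyte-like (of opposite sign to the reported -0.13) and -0.75 for osteoblast-like cells. The Schwann-like and lymphoid-like shares kept their direction in every setting that gave a value, at 0.12 to 0.50 and -1.23 to -0.85.

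The number of gene and class pairs past 2-fold, 1154 over 10 classes, was 2118 with a minimum of 20 CPM, and the genes shared across classes went from 9 to 29 at 1.5-fold, since both settings admit more genes. List medians under the stricter filter were -0.11 for smooth muscle collagens (-0.36), -0.91 for myelin (-0.65) and -0.30 for tendon matrix (0.54). Without Scrublet-marked cells they were 0.35 for smooth muscle early response genes (0.41) and -2.08 for myelin. Finer clustering gave 0.31 for smooth muscle early response genes and -0.14 for osteoblast maturation (0.21). Of 522 values of named genes under alternatives, 401 moved by less than counting error, 118 moved further and 3 reversed. The 401 include values that could not move, since a minimum of 20 CPM changes which genes are described and not a gene's own ratio. The other pseudocount reuses the same UMI sums, so the 401 are not all separate checks of the processing. Pcolce2 in basal keratinocyte-like cells (-0.29) and Aldh1a3 in tenocyte-like cells (0.87) reversed under the stricter filter. Hpse2 in B lineage-like cells reversed without Scrublet-marked cells (-3.275). Some settings gave no value: neutrophil-like cells under the looser filter, without Scrublet-marked cells and with the 2 libraries alone, pericyte-like cells with the 2 libraries alone, dendritic-like cells under the stricter filter and with the 2 libraries alone, and the hair keratin list under the stricter filter and finer clustering. No paired analysis was possible because each time is 1 library.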

Other observations

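The clock genes Dbp and Nr1d1, chosen after their values were seen, were higher in tenocyte-like cells and inside a single cluster of them. Of the clock list 6 genes were described in tenocyte-like cells, 2 past 2-fold higher and 0 lower, with a median of 0.36, beside 2.53% and 2.78% of all genes described in that class. The list's median was -0.02 in pericyte-like and -0.16 in fibroblast-like cells, with 2 past 2-fold higher in each, beside 0.758% and 0.839% of all described genes. In tenocyte-like cells Dbp and Nr1d1 were at 33.3 and 115 CPM and at 37.4 and 113 CPM, and inside the Fmod-led cells alone at 54.8 and 124 CPM and at 47.9 and 121 CPM. In pericyte-like cells Dbp was at 45.3 and 105 CPM in the Higd1b-led and at 26.6 and 103 CPM in the Id4-led cells. The labels used here give no time of day of collection.

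Spp1, osteopontin, was higher inside the Fmod-led tenocyte-like cells, at 547 CPM (1027 UMIs) and 3968 CPM (14191 UMIs), a log2 ratio of 2.86 (2.77 to 2.95). Cst3 was at 2202 and 7127 CPM in the same cells.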
